A study of Mus musculus with 6 samples.

Results

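The 9 genes described here belong to the JAK-STAT pathway and were measured in T follicular helper (Tfh) cells, a CD4+ class that gives help to B cells in germinal centers. They were taken by symbol from a table of 14744 genes: *Stat2*, *Stat3*, *Stat4*, *Stat5a*, *Stat5b* and *Stat6*, which encode transcription factors, and *Socs1*, *Socs3* and *Cish*, which encode inhibitors. All 9 of the 9 symbols were found, and all 9 were among the 11296 genes with a normalized read count of at least 10 in at least 3 of the 6 libraries, which were the genes tested.

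Tfh cells, gated as CD4+, B220-, CD44+, PD-1+ and CXCR5+, were sorted from mesenteric lymph nodes (MLNs) of C57BL/6 mice (C57BL/6J in the study's methods) aged 2 to 3 months kept free of specific pathogens, at 10000 to 30000 cells a sample as the labels' figure was read. The study compared 3 WT samples with 3 samples from Bach2 fl/fl mice carrying Cd4-cre, which deletes *Bach2* from the CD4+CD8+ thymocyte stage on, so in CD8+ as well as CD4+ T cells. The labels call the latter group Bach2-cKO. They do not say which alleles the WT samples carried, while the study's text uses WT for littermates that carry Cd4-cre as well. Nothing says whether a sample was 1 mouse or a pool, so the p-values measure only the spread between these samples, which may be technical. Values are the authors' normalized read counts, that is, reads per gene divided by a size factor for each library. The steps between values gave 6585742 and 7823717 reads in WT replicates 2 and 3, and 5045131, 10987752 and 7197242 in replicates 1, 2 and 3 labelled Bach2-cKO, with every value whole within 0.001. WT replicate 1 held 7737531 steps of 1.01, whole within the same tolerance. It was left out of the tests on reads by a choice made on its step, the closest of the 6 to 1, and intervals given for it take 1 step as 1 read. The cDNA was amplified by PCR without molecular identifiers, so intervals from reads cover counting error only.

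Cytokines bind receptors that carry Janus kinases, which phosphorylate STAT proteins, and paired STAT proteins then enter the nucleus and bind DNA. Different cytokines use different STATs, and this choice guides which helper program a CD4+ T cell follows: STAT3 is used by IL-6 and IL-21, which promote Tfh cells, while STAT5 is used by IL-2, which restrains them. SOCS proteins and CIS, the product of *Cish*, are made in response to the same signals and inhibit them.

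The deleted gene was examined first. *Bach2* was at 233, 222 and 105 normalized read counts in WT replicates 1, 2 and 3, and at 399, 763 and 591 in replicates 1, 2 and 3 labelled Bach2-cKO. Every library labelled Bach2-cKO was thus above every WT library, against the label, with a log2 fold change of 1.68 (SE 0.37, limma adjusted p = 0.141), and 1.81 by DESeq2 on 5 libraries (adjusted p = 0.00123). *Bach2* lies at chr4:32238804-32586108 on GRCm38, overlapping *Bach2it1* and *Gm24371* on its strand and *Bach2os* on the other. The counts cover the whole gene, so they do not show whether the deleted exons are present, and the group is called by its label throughout. WT replicate 1 also stood apart: 11648 genes were above 0 in it, against 13111 to 13567 in the other libraries. The largest shifts on leaving it out are given beside the genes they concern.

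All 12 of the 12 Tfh and T cell markers were tested, with *Cxcr5* at 1271 to 2207 and *Pdcd1* at 1462 to 2708 normalized read counts. At an unadjusted p under 0.05, 4 of the 12 were higher in the libraries labelled Bach2-cKO and 2 lower, beside 10.1% and 10.2% of all genes: *Cd4*, *Cd44*, *Tox2* and *Bcl6* had log2 fold changes of 0.49, 0.93, 1.10 and 0.74, and *Cd3e* and *Icos*, both past the study's thresholds in DESeq2 on 5 libraries, of -1.02 and -1.03. Myeloid genes were present in every library, with *Lyz2* at 1407 to 7212 normalized read counts. The plasma cell gene *Jchain*, picked after its values were seen, stood out in 1 library, at 316, 28803 and 6972 in WT replicates 1, 2 and 3, and 2075, 472 and 484 in replicates 1, 2 and 3 labelled Bach2-cKO. Of the 4 plasma cell markers, *Mzb1* and *Sdc1* were also highest in WT replicate 2, at 160 and 13.5. *Xbp1* was at 1139 there, against 1588 and 1294 in WT replicates 1 and 3 and 895 to 971 in the libraries labelled Bach2-cKO. The part of *Jchain* and plasma cells in the results was not tested.

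With limma on log2(normalized read count + 1), 0 of the 9 genes passed the study's thresholds, an adjusted p under 0.01 and more than 2-fold, as did 0% of the 11296 genes tested, where the smallest adjusted p was 0.141 and 2301 genes had an unadjusted p under 0.05. The study itself applied these thresholds to another test, DESeq2. The log2(value + 1) scale understates changes of low genes, and 3 libraries against 3 cannot give an exact permutation p under 0.1. At an unadjusted p under 0.05, 2 of the 9 genes, *Stat2* and *Stat5b*, were higher in the libraries labelled Bach2-cKO, beside 10.1% of all genes, and 0 of the 9 were lower, beside 10.2%. In 3 of the 9, *Stat2*, *Stat5b* and *Stat6*, all libraries labelled Bach2-cKO were above all WT libraries, beside 14.6% of all genes, and in 0 of the 9 they were all below, beside 12.2%. Without WT replicate 1, or without replicate 1 labelled Bach2-cKO, the 3 became 5, beside 20.5% and 17% of all genes. The median log2 fold change was 0.50 over the 9 genes and 0.08 over all genes tested. Count tests on the 5 libraries with recovered reads, which leave out WT replicate 1, called 0 of the 9 genes at the same thresholds. DESeq2 called 0.797% of all genes, 90 in number, and edgeR 0%. In each of them 3 of the 9 had an unadjusted p under 0.05, beside 19.1% and 18.3% of all genes. Fewer cells of a type and less RNA per cell cannot be told apart in these bulk samples.

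**Figure D1:**
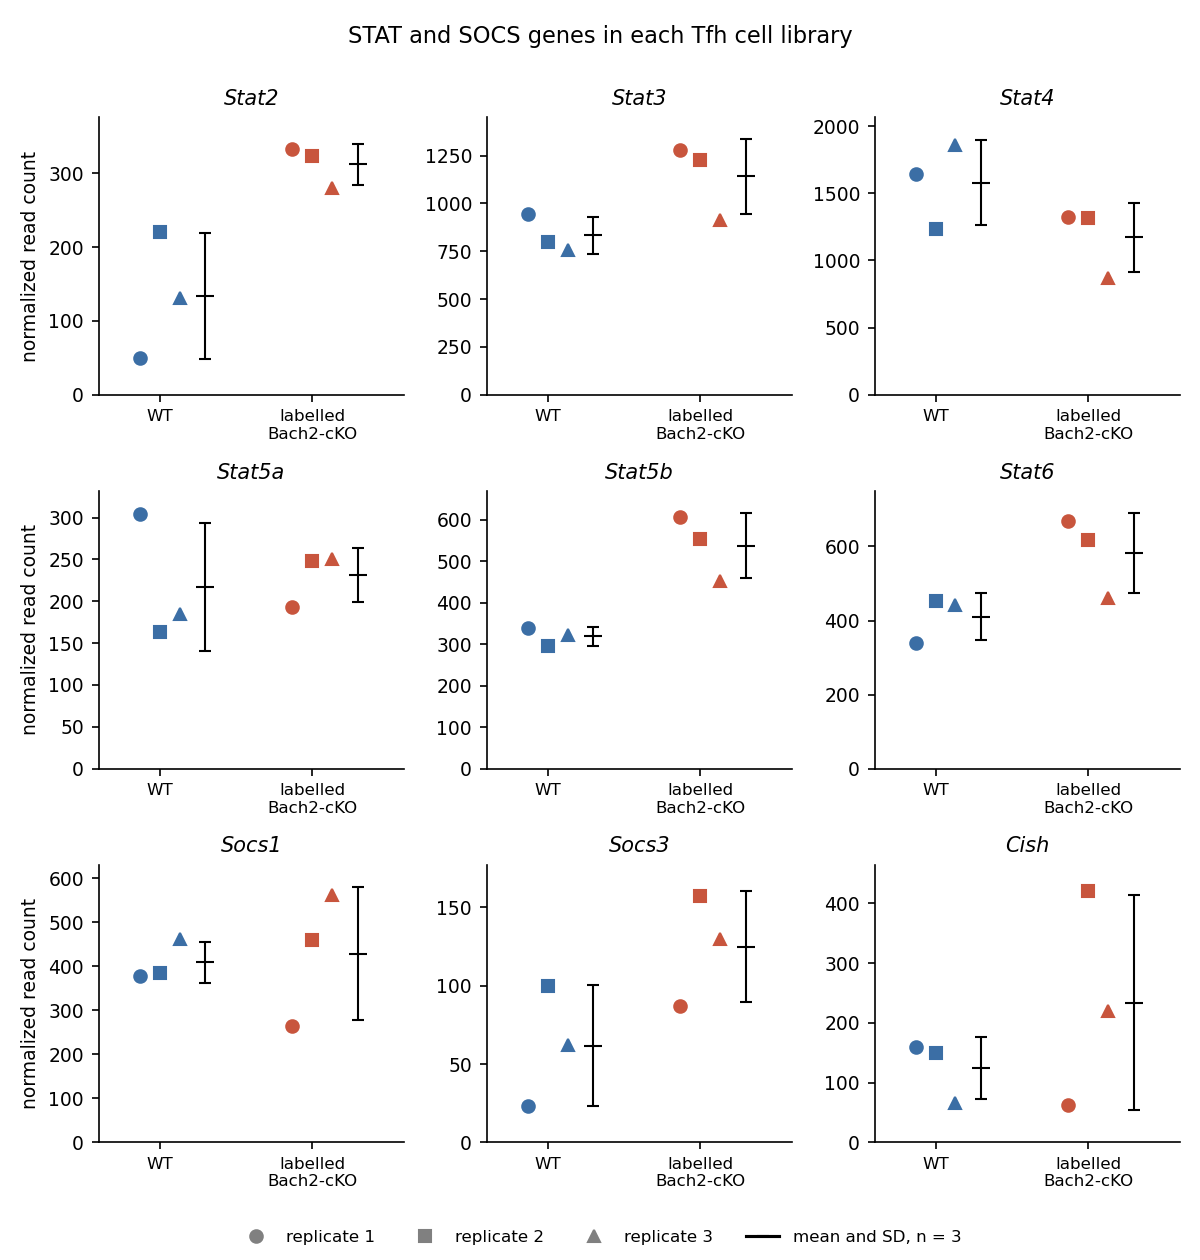
Normalized read counts of the 9 genes (vertical axes, from 0) in each library, with WT in blue and the libraries labelled Bach2-cKO in red, marker shapes for the replicate numbers, and black bars for the mean and SD of 3 libraries. The groups do not overlap for *Stat2*, *Stat5b* and *Stat6*, and *Stat2* and *Socs3* are lowest in WT replicate 1, at 50.5 and 23.2.

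Levels differed widely among these genes. Per kb of the longest coding transcript, *Stat4* had the highest mean level, at 530.0 ± 107 (SD, n = 3) normalized read counts per kb in WT libraries, against 393 ± 87.0 (SD, n = 3) in those labelled Bach2-cKO. *Socs3* had the lowest, at 24.2 ± 15.0 (SD, n = 3) and 48.9 ± 13.9 (SD, n = 3). *Stat3* was below *Stat4* in 6 of 6 libraries. *Stat3*, *Socs1* and *Stat6* had means of 163, 144 and 132 per kb over all libraries. *Stat3* was above *Stat6* in 6 of 6 libraries, while *Socs1* could not be placed against either: *Stat3* was above *Socs1* in 4 of 6 libraries, and *Socs1* above *Stat6* in 4 of 6. *Stat6* was above *Stat5b* in 6 of 6 libraries, with a mean log2 ratio of 0.70 ± 0.25 (SD, n = 6). *Stat5b*, *Cish*, *Stat5a* and *Stat2* came next, at means of 82.2, 63.0, 57.7 and 50.7 per kb, of which *Cish* was above *Stat5a* in 3 of 6 libraries and *Stat5a* above *Stat2* in 3 of 6.

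**Figure D2:**
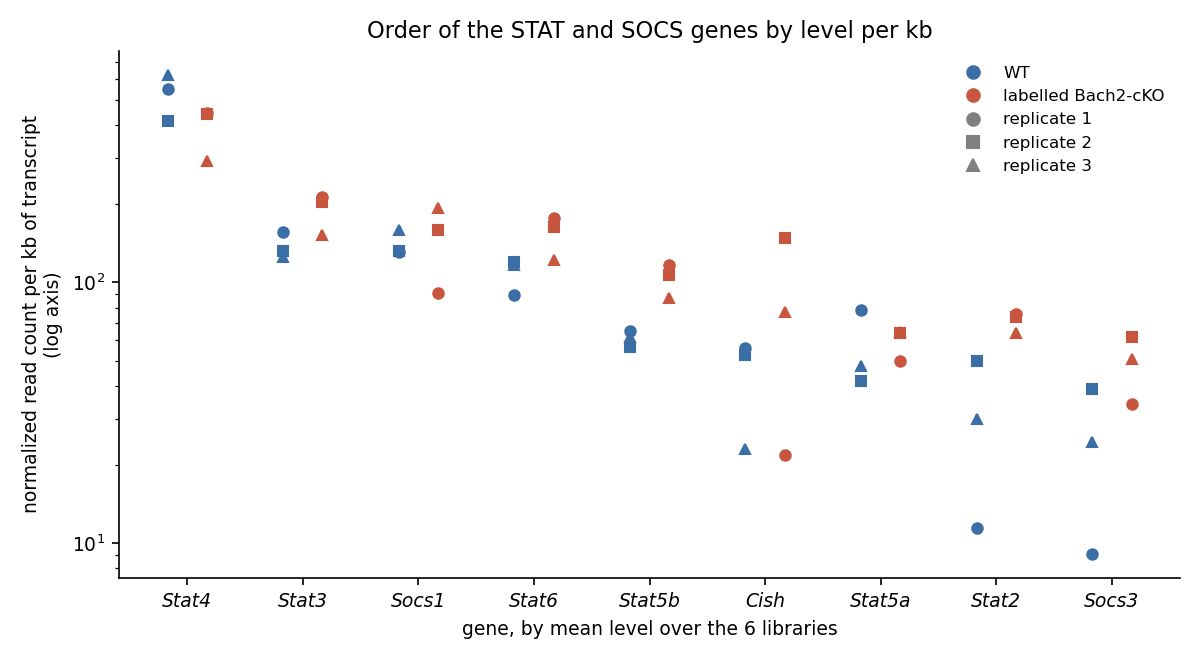
Level of each gene in normalized read counts per kb of transcript (log axis), in the order of the mean over 6 libraries, with WT in blue, the libraries labelled Bach2-cKO in red and marker shapes for the replicate numbers. *Stat4* leads in every library, and *Cish*, from 21.8 to 147 per kb, has the largest ratio of highest to lowest among the libraries labelled Bach2-cKO.

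*Stat2*, at chr10:128270559-128292849, encodes the partner of IRF9 in the factor that type I interferon activates. It was at 50.5, 219.9 and 131 normalized read counts in WT replicates 1, 2 and 3, and at 333, 324 and 280.2 in replicates 1, 2 and 3 labelled Bach2-cKO. The 3 libraries labelled Bach2-cKO lay close together above all WT libraries, with a highest value 1.19 times the lowest, while the WT libraries were spread by 4.36 times. The log2 fold change was 1.45 (SE 0.48, 95% confidence interval 0.38 to 2.51, limma adjusted p = 0.163). The value of WT replicate 1 stood for 50 steps, with an exact 95% Poisson interval of 37.5 to 66.5 normalized read counts. Without that library the log2 fold change was 0.87, and DESeq2 on the other 5 libraries gave 0.80 (adjusted p = 0.171).

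*Stat3*, at chr11:100885098-100939540, encodes the factor of IL-6 and IL-21 signals. It was at 944, 799 and 757 normalized read counts in WT replicates 1, 2 and 3, and at 1279.9, 1228 and 915 in replicates 1, 2 and 3 labelled Bach2-cKO. The groups overlapped, since replicate 3 labelled Bach2-cKO was below WT replicate 1. In limma the log2 fold change was 0.44 (SE 0.22, 95% confidence interval -0.04 to 0.92, limma adjusted p = 0.270).

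*Stat4*, at chr1:51987148-52107189, encodes the factor of IL-12 signals, which drive IFN-γ in Th1 cells. It was at 1642, 1236 and 1863 normalized read counts in WT replicates 1, 2 and 3, and at 1324, 1319 and 872 in replicates 1, 2 and 3 labelled Bach2-cKO. The groups overlapped through WT replicate 2, and this was the only one of the 9 genes with a negative log2 fold change in limma, though that of *Socs1*, near 0, was negative with quantile normalization and in DESeq2. Its log2 fold change was -0.44 (SE 0.24, 95% confidence interval -0.98 to 0.10, limma adjusted p = 0.322), with -0.60 without WT replicate 2, when the groups no longer overlapped, and -0.24 without replicate 3 labelled Bach2-cKO.

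*Stat5a*, at chr11:100859351-100885169, and *Stat5b*, at chr11:100780731-100850724, encode the closely related factors of IL-2 and IL-7 signals. *Stat5b* was at 340.1, 295 and 321 normalized read counts in WT replicates 1, 2 and 3, and at 606, 554 and 453 in replicates 1, 2 and 3 labelled Bach2-cKO. All 3 libraries labelled Bach2-cKO were above the WT libraries, which lay within 1.15 times of each other. The log2 fold change was 0.74 (SE 0.24, 95% confidence interval 0.22 to 1.27, limma adjusted p = 0.157). *Stat5a* was at 305, 163 and 185 normalized read counts in WT replicates 1, 2 and 3, and at 194, 249 and 251 in replicates 1, 2 and 3 labelled Bach2-cKO. WT replicate 1 was the highest of the 6 libraries and WT replicates 2 and 3 the lowest, so that the groups overlapped. In limma *Stat5a* had a log2 fold change of 0.13 (SE 0.33, 95% confidence interval -0.59 to 0.85, limma adjusted p = 0.841). It was 0.40 without WT replicate 1, when the groups no longer overlapped, and -0.05 without WT replicate 2. The transcripts of this pair share 608 stretches of 50 bases, 15.8% of those in *Stat5a* and 11.8% of those in *Stat5b*, and no other pair of the 9 genes shares any. Reads from these stretches could have been given to either gene or dropped, so both values are uncertain to that extent.

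*Stat6*, at chr10:127642986-127660957, encodes the factor of IL-4 and IL-13 signals. It was at 338, 453 and 441 normalized read counts in WT replicates 1, 2 and 3, and at 668, 617 and 461 in replicates 1, 2 and 3 labelled Bach2-cKO. The groups did not overlap, but replicate 3 labelled Bach2-cKO was just above WT replicate 2. The log2 fold change was 0.50 (SE 0.25, 95% confidence interval -0.06 to 1.05, limma adjusted p = 0.277).

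Replicate 3 labelled Bach2-cKO was the lowest of its group for *Stat2*, *Stat3*, *Stat4*, *Stat5b* and *Stat6*. It also held the most of the 4 erythroid markers, of which 1 was tested, at a sum of 16.3, 18.8 and 2853 normalized read counts in replicates 1, 2 and 3 labelled Bach2-cKO, against 5.05, 740.3 and 3.12 in WT replicates 1, 2 and 3. *Hbb-bs* was the most abundant of them, *Hba-a2* was at 0 in 3 or more libraries, and their part in the STAT values was not tested. Summed over the 6 STAT genes, the libraries held 3619, 3165 and 3699 normalized read counts in WT replicates 1, 2 and 3, and 4404, 4290.3 and 3233 in replicates 1, 2 and 3 labelled Bach2-cKO. The sum in replicate 3 labelled Bach2-cKO was within the WT range, and the other 2 of its group were above it.

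Of the inhibitor genes, *Cish* and *Socs3* varied more than the median gene tested within both groups, and *Socs1* mainly among the libraries labelled Bach2-cKO. *Cish*, at chr9:107296026-107302784, encodes CIS, which is induced by STAT5 and inhibits cytokine receptor signals. Its promoter and that of *Socs3* are shown because, among 12 windows of 300 bases at annotated starts of the 9 genes, they alone held the palindromic STAT motif TTCNNNGAA, which reads the same on both strands. The windows are from RefSeq on GRCm38.p6 and reach from 250 bases before to 50 after a start, all 9 genes were matched by symbol, and capitals mark the motif. That of *Cish* lies at chr9:107296409-107296708 on the plus strand and that of *Socs3* at chr11:117969317-117969616 on the minus strand.
Cish: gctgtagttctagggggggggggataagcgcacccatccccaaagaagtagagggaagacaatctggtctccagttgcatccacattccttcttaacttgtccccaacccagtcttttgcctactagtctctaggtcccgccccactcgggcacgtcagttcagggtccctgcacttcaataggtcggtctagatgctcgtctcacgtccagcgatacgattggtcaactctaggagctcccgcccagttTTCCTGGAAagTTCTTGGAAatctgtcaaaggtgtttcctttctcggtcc
Socs3: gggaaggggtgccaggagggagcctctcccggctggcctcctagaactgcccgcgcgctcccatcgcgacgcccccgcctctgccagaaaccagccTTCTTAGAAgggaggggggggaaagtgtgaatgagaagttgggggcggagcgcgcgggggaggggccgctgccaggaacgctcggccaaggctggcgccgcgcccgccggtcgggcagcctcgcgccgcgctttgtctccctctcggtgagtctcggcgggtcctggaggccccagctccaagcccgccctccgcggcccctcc
*Cish* held 2 matches, TTCCTGGAA and TTCTTGGAA, the first beginning at the annotated start, and *Socs3* held 1, TTCTTAGAA. Of all 32851 windows of this length, 8.30% held at least 1 match and 0.457% at least 2. The motif TGACTCA or its reverse complement TGAGTCA, shared by AP-1 and Bach factors, was in 0 of the 12 windows and in 5.20% of all windows. A match describes the letters, and binding was not measured.

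*Cish*, with both matches, was at 159, 150.3 and 65.5 normalized read counts in WT replicates 1, 2 and 3, and at 62.1, 420.1 and 219.9 in replicates 1, 2 and 3 labelled Bach2-cKO. Both the highest and the lowest of the 6 libraries were labelled Bach2-cKO, and that group spanned 6.77 times from lowest to highest. Its log2 fold change was 0.62 (SE 0.64, 95% confidence interval -0.81 to 2.05, limma adjusted p = 0.587). It was 0.01 without replicate 2 labelled Bach2-cKO and 1.38 without replicate 1 of that group, and 0.21 without WT replicate 3. With library weights it was 1.88 (limma adjusted p = 0.00834), with a weight of 5.54 on replicate 2 labelled Bach2-cKO, where *Cish* was highest, and 0.206 on WT replicate 1.

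*Socs1*, at chr16:10782240-10785536, encodes an inhibitor of Janus kinases that limits signals of IFN-γ, IL-2 and IL-4. It was at 378, 384 and 463 normalized read counts in WT replicates 1, 2 and 3, and at 265, 459.7 and 560.5 in replicates 1, 2 and 3 labelled Bach2-cKO. The WT libraries fell within the range of the other group, whose replicate 1 was the lowest and replicate 3 the highest of the 6. Limma gave a log2 fold change of 0.01 (SE 0.30, 95% confidence interval -0.67 to 0.68, limma adjusted p = 0.992), and it was negative without WT replicate 1, WT replicate 2, or replicate 2 or 3 labelled Bach2-cKO, at -0.04, -0.03, -0.08 and -0.22.

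*Socs3*, at chr11:117966079-117970047, whose window held 1 match, encodes an inhibitor that binds the IL-6 receptor chain gp130 and limits STAT3 signals. It was at 23.2, 99.8 and 62.4 normalized read counts in WT replicates 1, 2 and 3, and at 87.2, 157 and 129.9 in replicates 1, 2 and 3 labelled Bach2-cKO. WT replicate 1 was again the lowest library, and the groups overlapped because WT replicate 2 was above replicate 1 labelled Bach2-cKO. The log2 fold change was 1.19 (SE 0.57, 95% confidence interval -0.07 to 2.45, limma adjusted p = 0.264), and 0.61 without WT replicate 1. Myeloid cells also express *Socs3*, and the 9 myeloid or dendritic cell markers summed to 6252, 15807 and 8689 normalized read counts in WT replicates 1, 2 and 3, and to 7437, 14375 and 5297 in replicates 1, 2 and 3 labelled Bach2-cKO. *Cst3* was the most abundant of them, no marker was at 0 in 3 or more libraries, 8 of the 9 were tested and 0 had an unadjusted p under 0.05. The part of these cells in the *Socs3* values was not tested.

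On the log2 scale, the pooled SD within groups was 1.11 for *Cish*, 0.80 for *Socs3* and 0.76 for *Stat2*, against a median of 0.45 over all genes tested. It was 0.17 for *Stat5b* and 0.22 for *Stat3*.

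Fold changes ran with transcript length across all genes, and this bears on the order of the 9. Spearman's rho between log2 fold change and length was 0.339 across the genes with a length, which are not independent replicates. The libraries differed in this too: rho between length and the deviation from the gene's mean was -0.24, -0.06 and -0.28 in WT replicates 1, 2 and 3, and 0.35, 0.26 and -0.00374 in replicates 1, 2 and 3 labelled Bach2-cKO. Replicates 1 and 2 labelled Bach2-cKO, with the positive values, were also those with the highest STAT sums, and the part of length in those sums was not tested. In 4 equal bins of genes by length, from short to long, the median log2 fold change was -0.22, -0.11, 0.23 and 0.45. *Stat3* and *Stat5b*, of 6042 and 5213 bases, fall in the longest bin, *Stat2*, *Stat5a* and *Stat6* in the next, and *Stat4* and the 3 inhibitor genes in the one after that. *Stat3*, at 0.44, was thus at the median of genes of its length, while *Stat5b*, at 0.74, and *Stat2*, at 1.45, were above theirs. So were *Socs3*, *Cish*, *Stat6* and *Socs1*, at 1.19, 0.62, 0.50 and 0.01, while *Stat5a* and *Stat4*, at 0.13 and -0.44, were below theirs. Once the dependence of each library's values on length and GC content had been fitted as a smooth curve and subtracted, *Stat2* kept a log2 fold change of 1.10 (SE 0.47, limma adjusted p = 0.295) and *Socs3* one of 0.98 (SE 0.59, limma adjusted p = 0.422). That of *Stat5b* was 0.29 (SE 0.20, limma adjusted p = 0.484), those of *Stat6*, *Stat4* and *Cish* were 0.19, -0.28 and 0.43, and *Stat3*, *Stat5a* and *Socs1* turned to -0.05, -0.28 and -0.31. After this step 1 of the 9 genes, *Stat2*, was higher at an unadjusted p under 0.05, beside 8.59% of all genes. The median log2 fold change was then 0.19 over the 9 genes and 0.09 over all genes tested. The source of the trend was not tested.

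**Figure D3:**
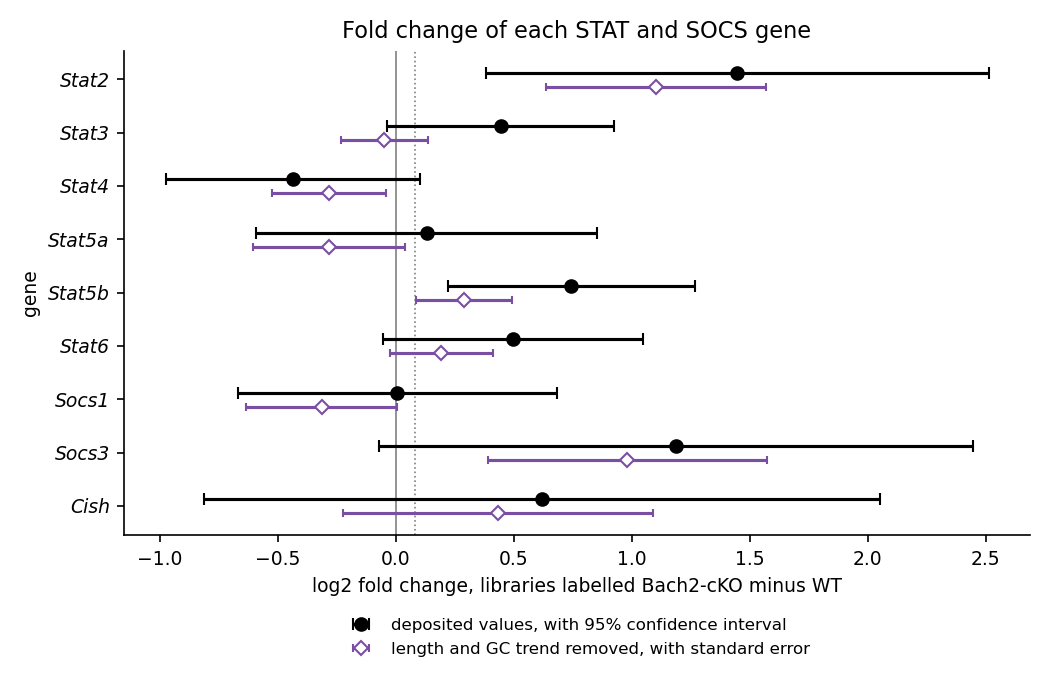
Log2 fold change of each gene, libraries labelled Bach2-cKO minus WT, from the deposited values (black, with 95% confidence intervals) and after subtraction of the length and GC trend (open diamonds, with standard errors), beside a line at 0 and a dotted line at the median of all genes tested, 0.08. The intervals of *Stat2* and *Stat5b* lie above 0, and *Stat3*, *Stat5a* and *Socs1* change sign once the trend is removed.

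Several STAT genes lie near each other. On GRCm38, in GENCODE release M21, *Stat2* and *Stat6* are 609601 bases apart on the same strand of chromosome 10. On chromosome 11, *Stat5a* and *Stat5b* lie 8626 bases apart on opposite strands, and *Stat3* and *Stat5a*, also on opposite strands, overlap at their ends. *Stat6* and *Cish* too overlap genes of the other strand, and *Stat4* genes of both. The library kit does not mark strand, so reads from such overlaps cannot be told apart.

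Ratios of paired genes within a library do not depend on its size factor. The 3 neighbouring pairs of the 9 genes and the pair *Stat6* and *Stat4* were compared, chosen after the values had been seen, and so are described with no test. *Stat6* over *Stat4* was 0.206, 0.367 and 0.237 in WT replicates 1, 2 and 3, and 0.504, 0.468 and 0.529 in replicates 1, 2 and 3 labelled Bach2-cKO. The groups did not overlap, and the ratio varied by an SD of 0.0853 in WT and 0.0307 in the other group. With the length and GC trend removed, the difference between the 2 log2 fold changes was 0.48 in place of 0.93. *Stat2* over *Stat6* was 0.149, 0.485 and 0.297 in WT replicates 1, 2 and 3, and 0.498, 0.524 and 0.608 in replicates 1, 2 and 3 labelled Bach2-cKO, and so did not overlap either, though the difference between the log2 fold changes was 0.51 without WT replicate 1 in place of 0.95. *Stat3* over *Stat5a* ran from 3.10 to 4.91 in WT and from 3.65 to 6.61 in the libraries labelled Bach2-cKO, and *Stat5b* over *Stat5a* from 1.12 to 1.81 and from 1.81 to 3.13, with overlap in both.

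**Figure D4:**
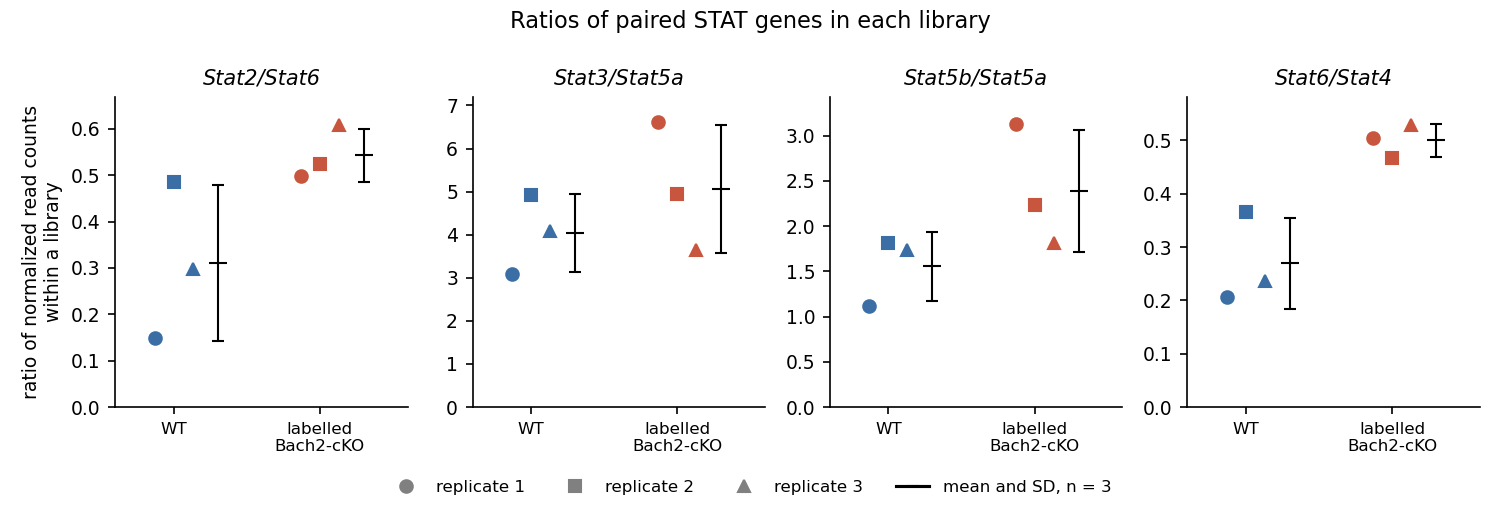
Ratio of normalized read counts of 2 STAT genes within each library (vertical axes, from 0), with WT in blue, the libraries labelled Bach2-cKO in red, marker shapes for the replicate numbers and black bars for the mean and SD of 3 libraries. *Stat2* over *Stat6* and *Stat6* over *Stat4* are higher in each library labelled Bach2-cKO than in each WT library, and *Stat3* over *Stat5a* overlaps.

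Each gene was also set beside the gene outside the 9 with the most like pattern over the 6 libraries, measured as the Euclidean distance between centred log2 values. The nearest genes were *Kmt2c* for *Stat6* (distance 0.136), *Hivep1* for *Stat3* (0.146), *Ythdc2* for *Stat2* (0.183), *Ptdss1* for *Stat5a* (0.184) and *Kdm5c* for *Stat5b* (0.194). *Tmem170b* for *Socs1* (0.250), *Tdpx-ps1* for *Stat4* (0.269) and *F2r* for *Socs3* (0.350) were farther, and *Tet1* for *Cish* (0.616) was at the largest distance. The distance is not scaled to a gene's own spread. That spread, as the distance from the gene's mean, was 2.34 for *Cish* and 2.17 for *Socs3*, against 0.84 for *Stat4* and 0.82 for *Socs1*. The order is thus not one of likeness relative to spread. Among 11296 genes and 6 libraries close matches are common, and these are descriptions.

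The rest of the pathway was described from lists chosen with earlier results of these data known, which limits what their counts can show. They stand beside the 10.1% of all genes that were higher and the 10.2% that were lower at an unadjusted p under 0.05. With the length and GC trend removed, 8.59% of all genes were higher. Of the 4 Janus kinases, 2 were higher at an unadjusted p under 0.05 and 0 lower, with a median log2 fold change of 0.61, beside 0.08 over all genes. *Tyk2*, the kinase of interferon and IL-12 receptors, was at 59.6, 223 and 177 normalized read counts in WT replicates 1, 2 and 3, and at 470.0, 363 and 226 in replicates 1, 2 and 3 labelled Bach2-cKO. All the latter were above WT, the closest by 226 against 223, and the log2 fold change of 1.34 (SE 0.49, limma adjusted p = 0.185) was 0.76 without WT replicate 1. *Jak3*, the kinase bound by the common gamma chain, had a log2 fold change of 0.91 (SE 0.33, limma adjusted p = 0.185), and *Jak1*, the most abundant per kb, one of 0.32, and 0.19 without WT replicate 1. With the length and GC trend removed, 0 of the 4 were at an unadjusted p under 0.05 and their median was 0.14.

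*Pias1*, which encodes a SUMO ligase that inhibits STAT signals, was at 1394, 960.2 and 1002 normalized read counts in WT replicates 1, 2 and 3, and at 418, 516 and 609.6 in replicates 1, 2 and 3 labelled Bach2-cKO. All libraries labelled Bach2-cKO were below all WT libraries, with a log2 fold change of -1.12 (SE 0.24, limma adjusted p = 0.141), and -1.28 with the trend removed.

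Of 11 tested genes of the SOCS box ligase and of phosphatases and other brakes, 2 were higher and 1 lower, with a median of 0.02. The 2 were *Ptpn11*, the gene of the phosphatase SHP2, at 0.76 (SE 0.23, limma adjusted p = 0.151), and *Asb2*, of a SOCS box protein, at 0.71 (SE 0.23, limma adjusted p = 0.158), and with the trend removed they were at 0.32 and 0.43. *Tceb2*, for elongin B, was the most abundant per kb, at -0.04, and 0.13 with quantile normalization. The lower gene was *Ptpn2*, named after its values were seen, as are the genes below that are given by name only. With the trend removed 2 other genes of the 11 were higher and 0 lower, with a median of 0.16. *Ptpn11* and *Asb2* then had an unadjusted limma p of 0.184 and 0.0878, so that they and *Ptpn2* were no longer called.

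Of 8 tested cytokine ligands, 2 were higher and 2 lower, with a median of 1.15, and 3 of the 11 listed did not reach the minimum value. Both ends of the helper axis were among them: *Il4* had a log2 fold change of 1.35 and *Ifng* one of -2.02 (SE 0.28 and 0.49, limma adjusted p = 0.141 each). The other higher gene was *Il6* and the other lower gene *Il10*. *Il6* was a low gene, at 4.37, 3.67 and 2.25 with pseudocounts of 0.5, 1 and 4, so the size of its change is uncertain. It may have reached the minimum value only through the libraries labelled Bach2-cKO, and no weight is put on its call. With the trend removed 4 ligands were higher and 1 lower. Of 22 tested cytokine receptors, 4 were higher and 3 lower, with a median of 0.22. *Il12rb1*, a receptor chain of IL-12 upstream of STAT4, had a log2 fold change of 1.92 (SE 0.50, limma adjusted p = 0.141), and *Il2rg*, the common gamma chain, the most abundant per kb, one of -0.88 (SE 0.22, limma adjusted p = 0.141), and -0.44 with the trend removed. *Il6st*, *Il9r* and *Ifngr2* were also higher, and *Il13ra1* and *Il23r* also lower, at an unadjusted p under 0.05, and with the trend removed 2 receptors were higher and 3 lower.

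Genes known as targets of each STAT went both ways in most lists. Of 11 genes that interferon induces, 0 were higher and 0 lower at an unadjusted p under 0.05, with a median of -0.04, so that the higher *Stat2* values stood beside targets at about the median of all genes. *Irf7* had the smallest p of them, at a log2 fold change of -0.63 (SE 0.32, limma adjusted p = 0.276), and *Bst2*, the most abundant per kb, was at -0.51. Without 1 library in turn *Irf7* ran from -0.97 to -0.44 and *Bst2* from -0.78 to -0.21: both were lower at an unadjusted p under 0.05 without WT replicate 1, *Irf7* also without replicate 3 labelled Bach2-cKO, and neither without any other library. Of 8 STAT3 targets, 2 were higher and 1 lower, with a median of -0.05: *Pim1*, a survival kinase, was at 1.51, *Bcl6*, the lineage factor of Tfh cells, at 0.74 and *Batf* at -0.67, but with the trend removed *Batf* was at -0.47 and 0 were lower. Of 6 STAT4 targets, 1 was higher, *Furin* at 1.09, and 1 lower, *Ifng*, with a median of 0.30, but with the trend removed *Furin* was at 0.49 and 0 were higher. Of 9 STAT5 targets, 2 were higher and 1 lower, with a median of 0.44. *Gzmb* and *Pim1* were the higher genes, and *Foxp3*, the lineage factor of regulatory T cells, was at -1.76. *Lta*, the most abundant per kb, was at -0.78, with overlap between the groups. It ran from -1.19 without replicate 3 to -0.51 without replicate 2 labelled Bach2-cKO. With the trend removed 3 STAT5 targets were higher and 1 lower, with a median of 0.22. Of 7 regulatory T cell markers, *Foxp3* among them, 3 were lower and 0 higher, and they summed to 7099, 7454 and 9538 normalized read counts in WT replicates 1, 2 and 3, and to 7811, 6331 and 5700.0 in replicates 1, 2 and 3 labelled Bach2-cKO. The most abundant was *Ikzf2*, no marker was at 0 in 3 or more libraries, and the part of such cells in the *Foxp3* values was not tested. Of 6 tested STAT6 targets, 2 were higher, *Gata3* at 1.48 and *Il4*, and 2 lower, *Ccr8* and *Xbp1*, with a median of 0.27, and with the trend removed 2 were higher and 1 lower. None of these genes passed the study's thresholds in limma, while DESeq2 on 5 libraries called *Ifng*, *Il12rb1*, *Foxp3* and *Gata3* of the pathway genes named with values. With library weights 9.99% of all genes did, and with them 2 of the 9 genes, *Stat2* and *Cish*, at log2 fold changes of 1.16 and 1.88 (limma adjusted p = 0.00382 and 0.00834).

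**Figure D5:**
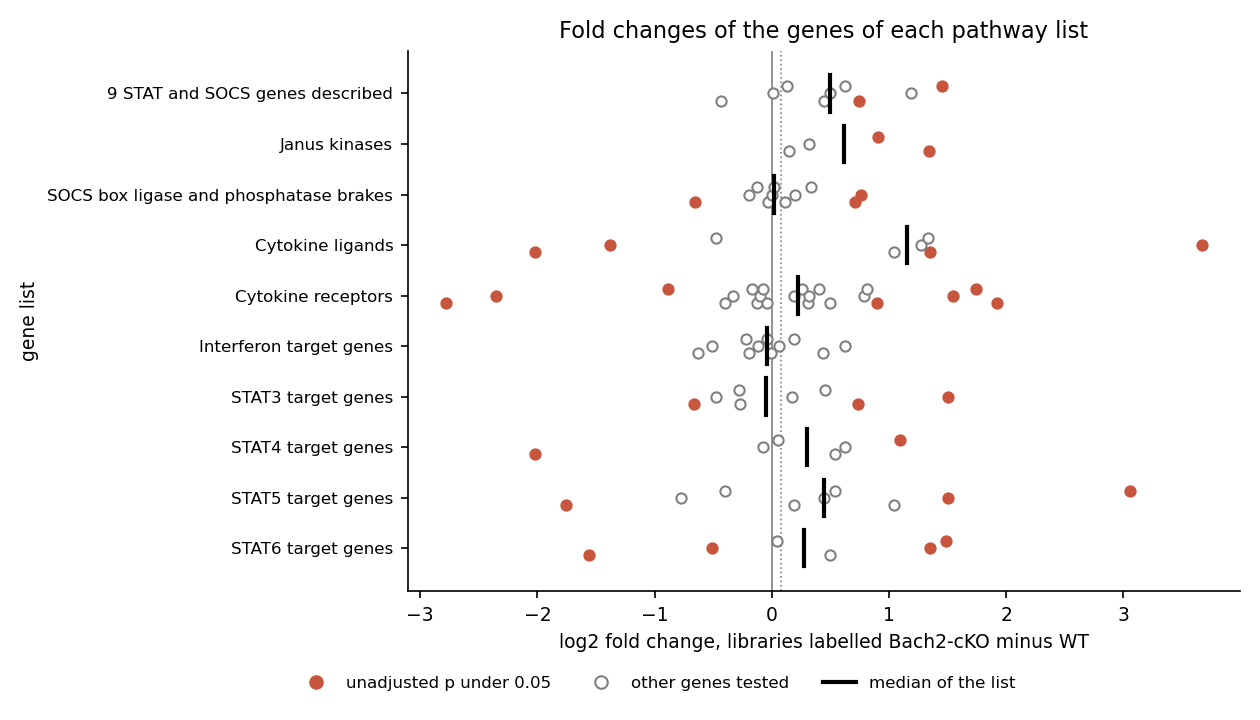
Log2 fold change of every tested gene of each list, libraries labelled Bach2-cKO minus WT, with red points at an unadjusted p under 0.05, open points for the others, black bars for the list's median and a dotted line at the median of all genes tested, 0.08. The 9 genes and the Janus kinases have medians of 0.50 and 0.61, and the interferon targets one of -0.04.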

How the data were processed

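RNA of sorted Tfh cells was made into cDNA with a kit that amplifies it and does not mark strand, and was sequenced. The values are the signal the authors deposited, normalized read counts per gene, that is, reads divided by a size factor for each library. The submitters' processing notes name STAR 2.5.2b, DESeq, R 3.5.1 and DESeq2 1.20.0 with GRCm38, while the paper's methods name Tophat2, HTSeq and DESeq2, and both are given here as stated. Groups were taken from the sample labels.

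Tests were run on log2(value + 1) for genes that reached 10 in 3 or more libraries, using limma 3.58.1 (R 4.3.3), a prior variance that follows the mean and Benjamini-Hochberg adjustment. Reads recovered from the value steps of 5 libraries were tested with edgeR 4.0.16 and DESeq2 1.42.0. The length and GC trend was fitted with mgcv 1.9.3 and subtracted, using the longest protein-coding transcript in GENCODE M21. Other steps used Python 3.11.15 and scipy 1.17.1. The model fits were checked on simulated data. The 9 genes and all lists were chosen with earlier results of these data known. The genes named from a list were the 2 with the smallest p and the most abundant per kb, and some results are not reported here. Alternatives were other pseudocounts, filters and normalizations, library weights, the replicate number as a block, and each library left out in turn.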

Additional observations from a re-analysis of the deposited data

How the results depend on the processing

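Of 153 log2 fold changes of the 9 genes under alternatives, 143 kept the direction and 10 did not. Other filters, a prior variance that does not follow the mean, and the replicate block leave a fold change as it is. Those among the 143 thus could not have turned. *Stat3* was -0.0485 with the length and GC trend removed. *Stat5a* was -0.28 with it removed, and -0.0506 to 0.40 leaving out 1 library at a time. *Socs1* was -0.00987 with quantile normalization, -0.00675 by DESeq2, -0.31 with the trend removed, and -0.22 to 0.32 leaving out 1 library. Of other genes, *Socs2* was -0.31 to 0.53 and *Tceb2* -0.11 to 0.0573 leaving out 1 library, *Tceb2* was 0.13 with quantile normalization, and *Il2ra*, at -0.40, was 0.47 with library weights and -0.85 to 0.14 leaving out 1 library. The cause was not tested.

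In limma, 0 genes passed the study's thresholds higher and 0 lower. DESeq2 on 5 libraries called 33 higher and 57 lower, library weights 561 and 567, edgeR 0, and leaving out 1 library 0 to 0. At an unadjusted p under 0.05, the count among the 9 genes was 2, against 7 with library weights, 1 with the trend removed and 2 to 4 leaving out 1 library. Among all genes it was 2301, against 5328 with library weights and 1074 to 3070 leaving out 1 library. The 9 genes held 3 in which all libraries labelled Bach2-cKO were above all WT libraries, beside 14.6% of all genes. Leaving out 1 library they held 3 to 5, beside 17% to 27.2% of all genes, an alternative chosen after seeing the data, as were those of the ratios. They held 0 in which these libraries were all below, beside 12.2%, and 0 to 1 leaving out 1 library, beside 14% to 23%. With the replicate number as a block, 0 genes were called and 2051 had an unadjusted p under 0.05. Same-numbered libraries deviated with correlations of -0.07, 0.12 and -0.04, against -0.145 to 0.117 between libraries of different numbers. The deviations are from a mean of only 3 libraries, which constrains the correlations, so whether the numbers pair the libraries was not settled.

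Depth limits the low genes, such as *Socs3* in WT replicate 1, at 23 steps with an exact 95% Poisson interval of 14.7 to 34.8 normalized read counts.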

Other observations

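*Cish*, *Socs2* and *Il2ra* varied alike among the libraries labelled Bach2-cKO, a pattern seen after the values were known and not tested. *Socs2* was at 224, 191 and 71.7 normalized read counts in WT replicates 1, 2 and 3, and at 103, 326 and 136 in replicates 1, 2 and 3 labelled Bach2-cKO. *Il2ra*, the IL-2 receptor alpha chain, was at 685, 535.1 and 409.7 in WT replicates 1, 2 and 3, and at 192, 763 and 448 in replicates 1, 2 and 3 labelled Bach2-cKO. In all 3 genes the highest of the 6 libraries was replicate 2 labelled Bach2-cKO, and replicate 1 of that group was the lowest for *Cish* and *Il2ra*. Replicate 2 labelled Bach2-cKO was also the highest of the 6 for *Socs3*, *Pim1* and *Gzmb*, the last at 2.02, 88.6 and 38.5 in WT replicates 1, 2 and 3, and at 79.8, 324 and 231 in replicates 1, 2 and 3 labelled Bach2-cKO. *Socs1* went otherwise, with its highest value in replicate 3 of that group, and the share of all genes highest in replicate 2 was not counted. That replicate 2 was the highest of its group in the summed markers of NK and innate lymphoid cells, at 235, 1007 and 207 in replicates 1, 2 and 3 labelled Bach2-cKO, after 641, 720.1 and 489.8 in WT replicates 1, 2 and 3, and in the summed myeloid markers. Of 7 NK and innate lymphoid markers 6 were tested, with 0 higher and 1 lower at an unadjusted p under 0.05, *Klrb1c* the most abundant and *Klra8* at 0 in 3 or more libraries, and their part in these patterns was not tested.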
